A study of Mus musculus with 7 samples.

Results

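The 10 genes described here make or release Wnt signals, or amplify them, were followed in the small intestine of mice fed a normal or a low amount of cystine. They are the Wnt transport protein Wls, the Wnt-modifying enzyme Porcn, the Wnt ligands Wnt3, Wnt2b, Wnt4, Wnt5a, Wnt5b and Wnt9b, and the R-spondins Rspo1 and Rspo3. The 10 genes were picked by name from the 38293 genes of the count table, in part because Wls stood high in the comparison of the diets. The diet difference of these genes is therefore a description and carries no test.

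RNA came from scrapings of the ileum of male C57BL/6NRJ mice, 8 weeks old, which were housed singly and acclimatized for 1 week to a high-fat control diet. For the next 2 weeks they received a high-fat AIN93G diet with a total cystine content of 0.38% (normal cys, 4 libraries named X17SI4, X32SI4, SI9 and X1SI4) or of 0.08% (low cys, 3 libraries named X23SI4, X26SI4 and X10SI4). In the low cys diet an equimolar amount of alanine replaced the added cystine, so that less cystine and more alanine cannot be told apart. No gene was altered in either group, and both groups shared the high-fat, low-calcium background. The scrapings held epithelium and lamina propria, and according to the methods no muscle layer.

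The authors deposited raw read counts on exons, with a total of 19712355 to 22412703 per normal cys library and 14888760 to 21942518 per low cys library. Values are given as raw counts and as CPM, counts scaled to the library size after TMM normalization, which corrects for differences in composition between libraries. Levels of different genes are compared only as CPM per kilobase of exon. The 14869 genes with enough counts were compared between the diets with edgeR, and 0 of them (0.0%) had an adjusted p-value under 0.05, with 0.291 the smallest. Before adjustment, 817 genes (5.49%) had a p-value under 0.05, 2.66% of all genes being higher and 2.83% lower on low cys, and DESeq2 gave 16 genes with an adjusted p-value under 0.05. The labels do not say that the libraries came from separate mice, so that a p-value measures the spread between libraries, and neither labels nor methods name a batch. The methods name 2 kits for purifying the RNA without saying which library had which. The labels name the Qiagen kit, and an effect of the kit was not examined.

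Wnt proteins are secreted signals that hold intestinal crypt cells in a dividing state. In the endoplasmic reticulum Porcn attaches a fatty acid to a serine of the Wnt protein, Wls binds the acylated Wnt and carries it to the cell surface, and the retromer complex returns Wls for another round. In the small intestine Wnt3 is made by Paneth cells at the crypt base, whereas Wnt2b, Wnt5a and the R-spondins come mainly from mesenchymal cells under the epithelium. R-spondins bind Lgr receptors and withdraw the ubiquitin ligases Rnf43 and Znrf3 from the cell surface, which leaves more Frizzled receptor to receive Wnt.

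The site that Porcn modifies lies in a cysteine-rich stretch that is shared by the ligands. The 30 bases of coding sequence around it are shown for each ligand because this is where the 6 ligands and the 2 secretion proteins meet. They are printed in the direction of transcription from the GENCODE M21 annotation of GRCm38, with the 3 cysteine codons in capitals, and the acylated serine is the codon that starts at base 19.
Wnt3: TGTaaaTGCcacgggttgtccggcagcTGC
Wnt2b: TGCaagTGTcacggtgtgagtggctccTGT
Wnt4: TGCaagTGTcacggggtgtcgggctccTGC
Wnt5a: TGTaagTGTcatggagtgtctggctccTGT
Wnt5b: TGCaaaTGTcacggagtctccgggtccTGC
Wnt9b: TGCaagTGCcatggtgtgtcaggctccTGT

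The stretch lay at chr11:103812308-103812337 (plus strand, exon 4) for Wnt3 and at chr3:104951220-104951249 (minus strand, exon 4) for Wnt2b. For Wnt4 it lay at chr4:137296339-137296368 (plus strand, exon 5) and for Wnt5a at chr14:28522509-28522538 (plus strand, exon 5). For Wnt5b it lay at chr6:119433800-119433829 (minus strand, exon 5) and for Wnt9b at chr11:103731167-103731196 (minus strand, exon 4). The serine is codon 212 in Wnt3 and Wnt4, 241 in Wnt2b, 244 in Wnt5a, 236 in Wnt5b and 218 in Wnt9b. Of the 30 positions, 16 held the same base in all 6 ligands. Wnt5a and Wnt9b were the most alike, with 26 matching bases, and Wnt2b and Wnt3 the least, with 19.

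The secreted members also share a high content of cysteine, the amino acid of which cystine is the oxidized dimer. Cysteine codons made up 6.32% (Wnt5a) to 7.12% (Wnt4) of the codons of the 6 ligands, 8.68% in Rspo1 and 8.30% in Rspo3. The median over the 12631 tested genes with a coding sequence was 1.91%, and the 90th percentile was 4.04%. The 2 secretion proteins, which stay in the membrane, lay closer to the median, with 2.22% in Wls and 2.39% in Porcn. These are properties of the sequences, and no protein was measured here.

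Of the 10 members, 5 had enough counts to be fitted, namely Wls, Porcn, Wnt3, Wnt4 and Wnt5a. The other 5 (Wnt2b, Wnt5b, Wnt9b, Rspo1 and Rspo3) did not pass the filter. None of the 5 fitted members had an adjusted p-value under 0.05 in edgeR, as for all genes (0.0%). Of the 5, 3 had a positive log2 fold change on low cys (Wls, Wnt3 and Wnt4) and 2 a negative one (Porcn and Wnt5a). A higher mean CPM on low cys was found in 51.1% of all genes tested. The median log2 fold change was 0.35 over the 5 fitted members and 0.01 over all genes tested. In 1 of the 5, Wls, the lowest low cys library exceeded the highest normal cys library, as in 3.32% of all genes tested, and the reverse, found in 3.51% of all genes, held for none of the 5. Nothing is read from these counts, because the choice of the genes used the same contrast.

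Wls (ENSMUSG00000028173, chromosome 3, 159839737 to 159935833, plus strand) encodes the carrier that every acylated Wnt needs to reach the cell surface. The normal cys libraries held 403 (X17SI4), 524 (X32SI4), 309 (SI9) and 486 (X1SI4) counts, and the low cys libraries 990 (X23SI4), 581 (X26SI4) and 459 (X10SI4). In CPM these were 21.0, 23.8, 16.2 and 23.2 on normal cys and 40.4, 36.3 and 29.6 on low cys. All 3 low cys values lay above the highest normal cys value, while the raw count of X10SI4, a less deep library, lay within the normal cys range. The mean was 21.1 ± 3.43 CPM (SD, n = 4) on normal cys and 35.4 ± 5.46 CPM (SD, n = 3) on low cys, a ratio of 1.68 and a log2 fold change of 0.75 ± 0.17 (SE). The highest library was 1.46 times the lowest on normal cys and 1.37 times on low cys. Ordered by log2 fold change, Wls was at place 484 of the 14869 genes tested, and 3.26% of them were at or above it. Wls varied between libraries by 18.1% beyond counting error, the smallest value among the 5 fitted members. In a bulk tissue, more cells that carry Wls and more Wls RNA per cell cannot be told apart. The Wls level also does not say which cells carried it.

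**Figure D1:**
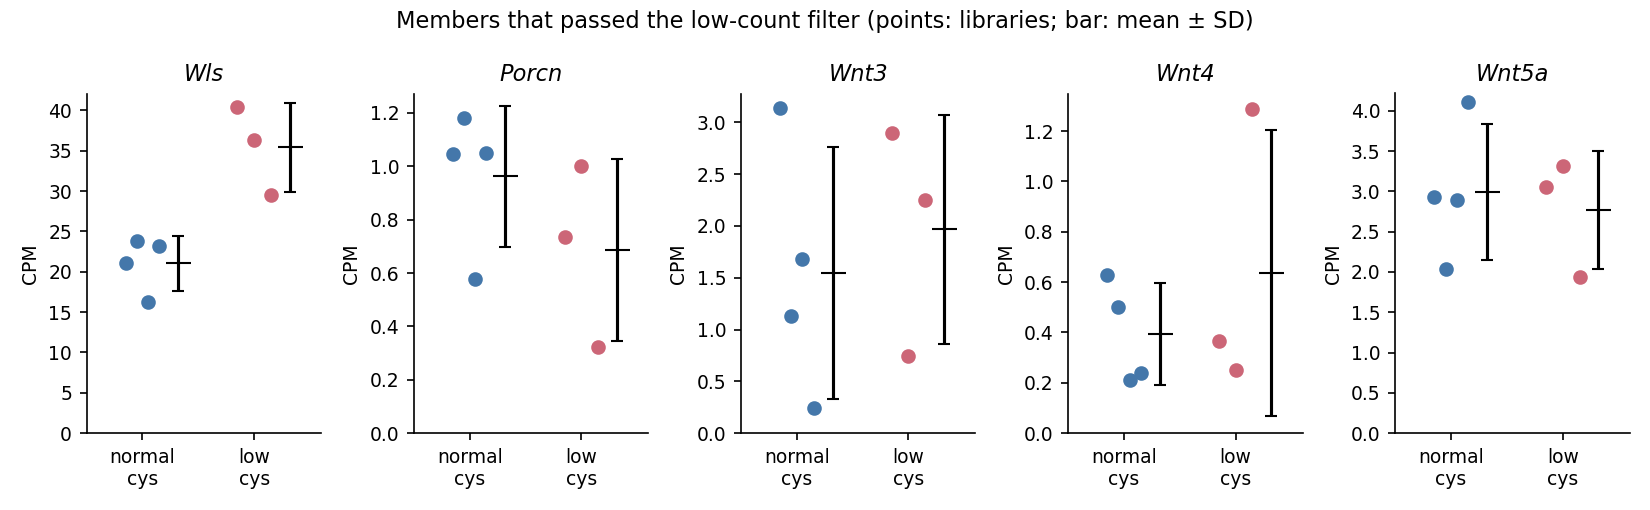
CPM of the 5 fitted members (one panel per gene, each with its own linear vertical axis from 0) in the 4 normal cys libraries (blue) and the 3 low cys libraries (red), with the mean ± SD beside the points. In Wls the low cys points, 29.6 to 40.4 CPM, lie above all normal cys points, 16.2 to 23.8 CPM. In Porcn, Wnt3, Wnt4 and Wnt5a the diets overlap.

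Among stromal and immune marker lists, the lymphatic endothelium and the B and plasma cell lists had separate diets in the direction of Wls. The sums of telocyte, fibroblast, smooth muscle, mesothelium, blood endothelium and T cell markers overlapped between the diets. That of trophocyte markers was separate in the opposite direction, but most of it was Dpp4, with a mean of 1122 CPM. Without Dpp4 the trophocyte sums of the diets overlapped, at 33.1 to 56.3 and 51.1 to 58.2 CPM. The 12 fibroblast markers summed to 90.8 to 194 CPM on normal cys and 83.6 to 146 CPM on low cys, but most of this was Fbln1, with a mean of 89.5 CPM. Of the 12, 11 had a higher mean on low cys, and in 3 every low cys library was the higher. Over all genes tested these shares were 51.1% and 3.32%, which also stand beside the marker counts that follow. Without Fbln1 the sum was 26.5 to 33.8 CPM on normal cys and 44.8 to 48.2 CPM on low cys, so that the diets did not overlap. All sums without the highest marker of a list were added after the data were seen. All 5 lymphatic endothelium markers (highest Lyve1) had a higher mean on low cys, with sums of 6.78 to 9.69 and 11.2 to 16.1 CPM. Without Lyve1 the lymphatic sums stayed separate, at 3.57 to 4.96 and 6.68 to 8.48 CPM. Of the 7 B and plasma cell markers 5 had a higher mean on low cys, with sums of 39.1 to 131 and 159 to 234 CPM. Without Jchain the B and plasma cell sum overlapped, at 6.30 to 56.9 and 13.1 to 49.9 CPM. Blood endothelium markers without Tie1 came to 1.10 to 4.80 and 5.02 to 5.995 CPM, separate only after this marker was left out. The part of these cell types in the Wls difference was not tested.

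The ileal enterocyte markers (highest Apoa1) were abundant in all 7 libraries, at 18780 to 29150 CPM on normal cys and 13040 to 19950 CPM on low cys, and 7 of the 8 had a lower mean on low cys. Of the 8 markers of proliferating crypt cells (highest Mki67), 8 had a higher mean on low cys, with sums of 129 to 347 and 219 to 389 CPM. The 8 T cell markers (highest Gzma) came to 135 to 256 and 99.3 to 158 CPM, with 8 of 8 lower in the mean. Of the 10 smooth muscle markers, 10 had a higher mean on low cys, and in 0 every low cys library was the higher. Their sums reached 192 to 233 and 178 to 276 CPM, most of it Mylk. Without Mylk the sums were 8.45 to 20.5 and 13.7 to 50.3 CPM, highest in X26SI4. The mesothelium list (highest Upk1b), with 4 of 5 higher, summed to 11.6 to 21.2 and 15.6 to 16.3 CPM. Of the 7 blood endothelium markers 5 were higher in the mean, at 7.17 to 8.55 and 7.15 to 8.87 CPM with Tie1.

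Porcn (ENSMUSG00000031169, chromosome X, 8193848 to 8206525, minus strand), the acyltransferase, was a low-count gene. Its counts were 20, 26, 11 and 22 in X17SI4, X32SI4, SI9 and X1SI4, and 18, 16 and 5 in X23SI4, X26SI4 and X10SI4. In CPM the normal cys libraries held 1.04, 1.18, 0.578 and 1.05 and the low cys libraries 0.734, 0.999 and 0.322. The lowest value was in X10SI4 and the next in the normal cys library SI9, so that the diets overlapped. The mean was 0.963 ± 0.264 CPM (SD, n = 4) on normal cys and 0.685 ± 0.341 CPM (SD, n = 3) on low cys, a log2 fold change of -0.43 ± 0.41 (SE). The difference was about as large as its standard error, and its direction was opposite to that of Wls.

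The remaining machinery of Wnt secretion was taken from a list of 13 genes that are no members, all of them tested. Of these, 5 were higher and 8 lower on low cys, with a median log2 fold change of -0.04, and none had an adjusted p-value under 0.05 in edgeR. Tmed5, a cargo receptor of the p24 family that carries proteins out of the endoplasmic reticulum, had counts of 236, 232, 289 and 264 on normal cys and 482, 255 and 260 on low cys. Its mean was 12.7 ± 1.92 CPM (SD, n = 4) on normal cys and 17.4 ± 1.96 CPM (SD, n = 3) on low cys. The low cys libraries all exceeded the normal cys libraries in CPM, as in 3.32% of all genes tested. Its log2 fold change was 0.46 ± 0.16 (SE), with an edgeR p-value of 0.0204 that became 0.794 after adjustment over all genes. No other gene of the 13 had an edgeR p-value under 0.05 before adjustment, against 5.49% of all genes tested. Without X23SI4 none of the 13 had, against 1.71% of all genes. Snx3, a sorting nexin that serves Wls recycling, was at 122 and 105 CPM, a log2 fold change of -0.22 ± 0.12 (SE). Tmed4, another p24 protein, was at 134 and 111 CPM, a log2 fold change of -0.27 ± 0.15 (SE). Both had an adjusted p-value of 0.794 in edgeR.

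**Figure D2:**
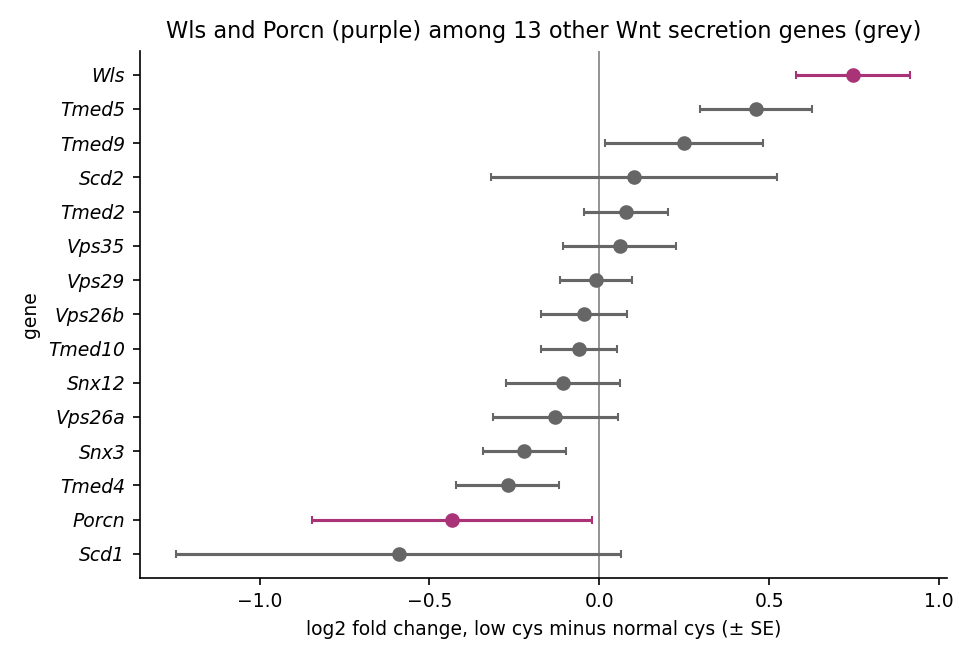
Log2 fold change (low cys minus normal cys, ± SE) of Wls and Porcn (purple) and of 13 other genes of Wnt secretion and Wls recycling (grey), ordered by value. Wls is at 0.75 and Porcn at -0.43, and the 13 other genes run from -0.59 to 0.46 with a median of -0.04.

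Over all 7 libraries Wls was the most abundant member, at 8.24 ± 2.61 CPM per kilobase (SD, n = 7). Wnt3 followed at 0.561 ± 0.355, Wnt5a at 0.370 ± 0.0951, Porcn at 0.281 ± 0.103 and Wnt4 at 0.119 ± 0.0908 CPM per kilobase. Wnt3, Wnt5a and Porcn did not differ beyond their spread. Below them were Rspo1 (0.0743), Wnt2b (0.0352), Wnt5b (0.0281), Rspo3 (0.0178) and Wnt9b (0.00702), whose order rests on few counts. The level of Wls per kilobase was 3.98 (X17SI4) to 14.2 (X26SI4) times that of the 6 ligands together, with 3.98, 8.68, 4.79 and 10.7 on normal cys and 8.33, 14.2 and 6.03 on low cys. The 2 diets overlapped in this ratio.

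**Figure D3:**
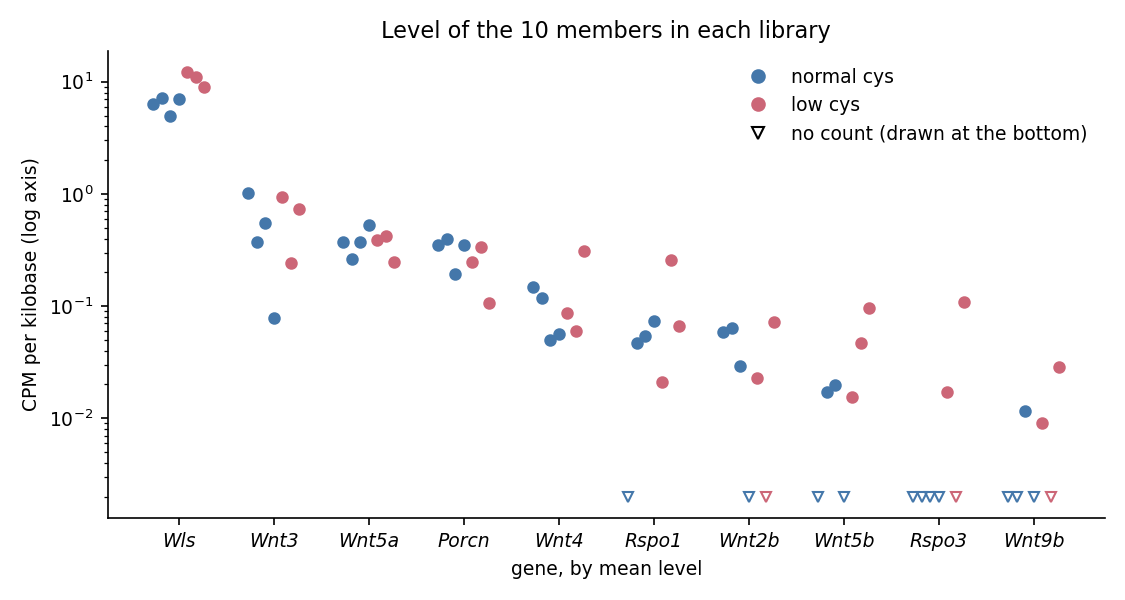
Level of the 10 members as CPM per kilobase of exon (log axis) in each normal cys (blue) and low cys (red) library, ordered by their mean, with open triangles at the bottom for libraries without a count. Wls stands above the rest at 4.91 to 12.2, and the 5 genes on the right each lack a count in 1 to 5 libraries.

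Wnt3 (ENSMUSG00000000125, chromosome 11, 103774150 to 103817957, plus strand), the Paneth cell Wnt, was the most variable of the fitted members. Its counts were 60 (X17SI4), 25 (X32SI4), 32 (SI9) and 5 (X1SI4) on normal cys and 71 (X23SI4), 12 (X26SI4) and 35 (X10SI4) on low cys. In CPM these were 3.13, 1.14, 1.68 and 0.239 on normal cys and 2.90, 0.749 and 2.25 on low cys. The highest and the lowest library were both on normal cys and differed 13.1-fold. The mean was 1.55 ± 1.21 CPM (SD, n = 4) on normal cys and 1.97 ± 1.10 CPM (SD, n = 3) on low cys, a log2 fold change of 0.35 ± 0.67 (SE). Wnt3 varied by 63.9% beyond counting error, against 25.5% for genes in general. Single libraries set its log2 fold change, which was 0.01 without X1SI4, 0.91 without X17SI4 and -0.02 without X23SI4.

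The Paneth cell markers varied in much the same libraries as Wnt3. The 9 markers (highest Lyz1) summed to 6496 (X17SI4), 3434 (X32SI4), 3421 (SI9) and 970 (X1SI4) CPM on normal cys and to 6860 (X23SI4), 4063 (X26SI4) and 7323 (X10SI4) CPM on low cys. Each of the 9 had a higher mean on low cys, and the sums of the diets overlapped. X1SI4 was lowest in both Wnt3 and the Paneth cell sum, and X17SI4, X23SI4 and X10SI4 were the 3 highest in both. X26SI4 went against this, with the second lowest Wnt3 level beside a Paneth cell sum in the middle of the range. The pattern was not particular to Paneth cells. The sum of the proliferating crypt markers was also highest in X23SI4 (389 CPM), X17SI4 (347 CPM) and X10SI4 (343 CPM) and lowest in X1SI4 (129 CPM). The ileal enterocyte sum was highest in X1SI4 and lowest in X23SI4. Whether the content of Paneth or other crypt cells accounts for the Wnt3 level was not tested.

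**Figure D4:**
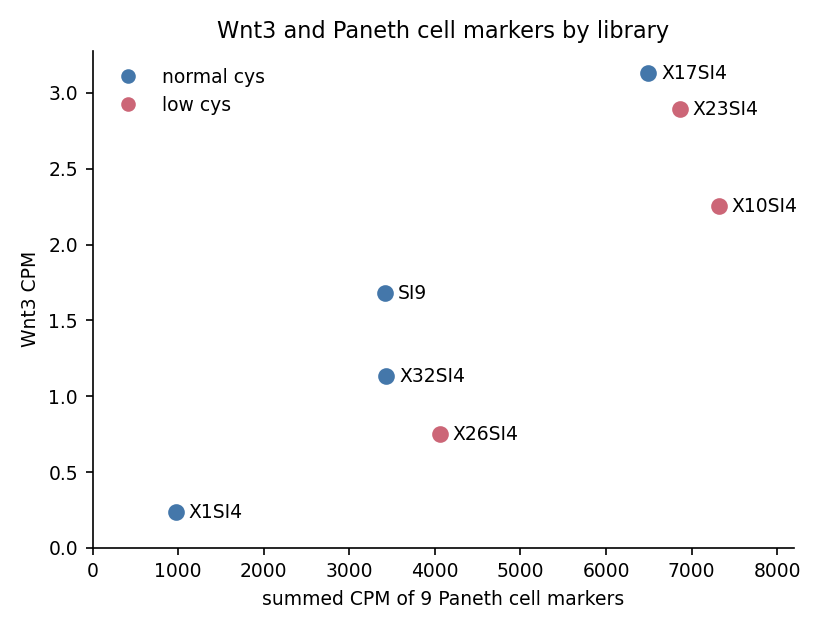
Wnt3 level (CPM) against the summed CPM of 9 Paneth cell markers in each of the 7 libraries, normal cys in blue and low cys in red. X1SI4 is at the lower left (970 and 0.239), X17SI4, X23SI4 and X10SI4 are at the upper right, and the diets are interspersed.

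Wnt5a (ENSMUSG00000021994, chromosome 14, 28504750 to 28527447, plus strand), a mesenchymal ligand that mostly signals without beta-catenin, was steadier. Its counts were 56, 45, 55 and 86 on normal cys and 75, 53 and 30 on low cys, listed in the library order used for Wnt3. In CPM these were 2.92, 2.04, 2.89 and 4.11 on normal cys and 3.06, 3.31 and 1.93 on low cys. The highest library was X1SI4 and the lowest X10SI4, and the diets overlapped. The mean was 2.99 ± 0.848 CPM (SD, n = 4) and 2.77 ± 0.734 CPM (SD, n = 3), a log2 fold change of -0.10 ± 0.31 (SE). This value turned to 0.08 without X1SI4 or without X10SI4, and to 0.05 under scaling by library totals, where the median of all genes moved to 0.15. An uncharacterized gene on the opposite strand, CT025649.1, shares 358 exon bases with Wnt5a but was at 0 counts in every library.

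Which of Wnt3 and Wnt5a was the higher differed between libraries. Per kilobase the level of Wnt3 was 2.73, 1.41, 1.48 and 0.148 times that of Wnt5a on normal cys (X17SI4, X32SI4, SI9 and X1SI4) and 2.41, 0.576 and 2.97 times on low cys (X23SI4, X26SI4 and X10SI4). Wnt3 was the higher in 5 of the 7 libraries and Wnt5a in X1SI4 and X26SI4. The lowest ratio, in X1SI4, and the second highest, in X17SI4, were both on normal cys.

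Wnt4 (ENSMUSG00000036856, chromosome 4, 137277489 to 137299726, plus strand), known from kidney and female reproductive development, had 12, 11, 4 and 5 counts on normal cys and 9, 4 and 20 on low cys. In CPM these were 0.627, 0.499, 0.210 and 0.239 on normal cys and 0.367, 0.250 and 1.29 on low cys. The higher mean on low cys, 0.635 ± 0.569 CPM (SD, n = 3) against 0.394 ± 0.203 CPM (SD, n = 4), rested on X10SI4, and the other low cys libraries lay within the normal cys range. The log2 fold change was 0.55 ± 0.56 (SE) and turned to -0.26 without X10SI4.

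The remaining ligands were near the limit of detection. Wnt2b (ENSMUSG00000027840, chromosome 3, 104944805 to 104961709, minus strand), a mesenchymal Wnt that supports crypt cells, had 4, 5, 2 and 0 counts on normal cys and 2, 0 and 4 on low cys. Pooled over the libraries of a diet, the ratio of low cys to normal cys was 0.790, with an exact 95% interval from 0.240 to 2.33 that covers counting error only. Leaving out 1 library took it from 0.364 (without X10SI4) to 1.12 (without X26SI4). Wnt5b (ENSMUSG00000030170, chromosome 6, 119432531 to 119544347, minus strand), the close relative of Wnt5a, had 0, 1, 1 and 0 counts on normal cys and 1, 2 and 4 on low cys, a ratio of 5.07 (0.965 to 49.99) that ran from 3.00 (without X10SI4) to 7.78 (without X23SI4). Wnt9b (ENSMUSG00000018486, chromosome 11, 103727364 to 103749821, minus strand), which lies next to Wnt3 and is known from kidney development, had 0, 0, 1 and 0 counts and 1, 0 and 2 counts, a ratio of 4.34 (0.349 to 228). All 3 intervals include 1. They pool the reads of a diet and leave out the spread between libraries, so no conclusion on a difference is drawn from them. For a library without a count, counting error allows an expected count of up to about 3, which corresponds to 0.122 to 0.193 CPM.

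Summed over the 6 ligands, the level was 5.10 ± 1.27 CPM (SD, n = 4; range 3.95 to 6.89) on normal cys and 5.68 ± 1.09 CPM (SD, n = 3; range 4.43 to 6.48) on low cys. The diets overlapped, and the difference between them, 0.575 CPM, was smaller than either SD. It ran from 0.213 to 1.29 CPM when 1 library was left out, with 1.29 without X26SI4, 1.18 without X17SI4, 0.213 without X23SI4, 0.259 without X32SI4 and 0.344 without X10SI4, and was 1.17 CPM under library totals. Without Wnt3 the sums were 3.56 ± 0.652 and 3.71 ± 0.140 CPM.

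The R-spondin members were seen in few reads. Rspo1 (ENSMUSG00000028871, chromosome 4, 124986430 to 125009099, plus strand) had 0, 2, 2 and 3 counts on normal cys and 1, 8 and 2 on low cys, with 8 of its 18 counts in X26SI4. The pooled ratio was 2.27 (0.805 to 6.92) and was 0.883 without X26SI4. Rspo3 (ENSMUSG00000019880, chromosome 10, 29453109 to 29535867, minus strand), regarded as the main R-spondin of the crypt niche, had no count in the 4 normal cys libraries and 1, 0 and 4 counts in the low cys libraries. No fold is given for Rspo3, since a ratio to 0 counts on normal cys is not defined. Together the R-spondins had 7 counts on normal cys and 16 on low cys, or 0.0848 ± 0.0607 CPM (SD, n = 4) and 0.323 ± 0.216 CPM (SD, n = 3), with overlapping diets. Of the Rspo3 transcript sequence, 11.6% of 50-base stretches also occur in other genes, so its counts are uncertain.

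**Figure D5:**
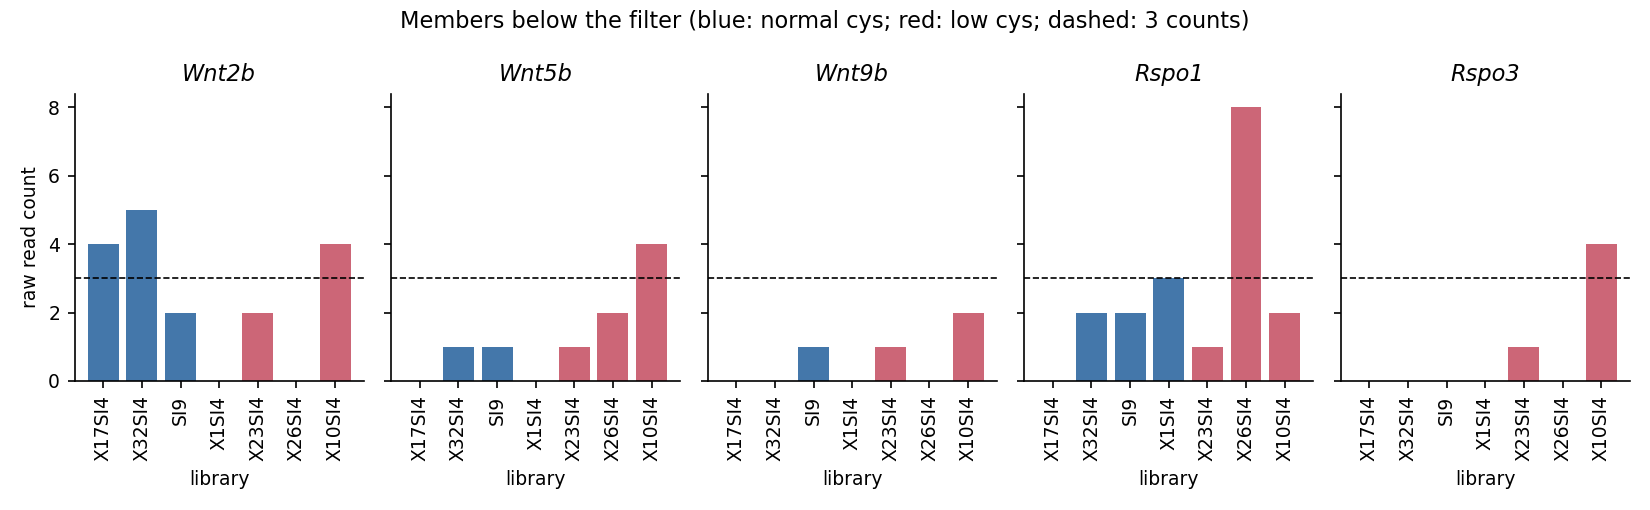
Raw read counts of the 5 members below the filter in each library, normal cys in blue and low cys in red. The dashed line at 3 counts marks about the highest expected count that counting error allows where 0 was observed. Only Rspo1 in X26SI4, with 8, and Wnt2b in X32SI4, with 5, exceed 4 counts.

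The low-count members were spread unevenly over the libraries. X23SI4 and X10SI4, both on low cys, had at least 1 count for each of the 10 members, whereas X17SI4 and X1SI4 lacked 4 of them, X26SI4 lacked 3, X32SI4 lacked 2 and SI9 lacked 1. X10SI4 had the highest CPM of Wnt2b, Wnt4, Wnt5b, Wnt9b and Rspo3 and the lowest of Porcn and Wnt5a. Of 10 markers of subepithelial telocytes, a mesenchymal source of Wnt, Foxl1 was at 0 in every library, and 6 had a higher mean on low cys. Their sum was 37.4 to 63.0 CPM on normal cys and 42.6 to 52.0 CPM on low cys, most of it Sox6, and 5.97 to 8.67 and 8.12 to 10.7 CPM without Sox6. Markers of CD81+ trophocytes, the R-spondin source below the crypt, summed to 1156 to 1425 and 930 to 1138 CPM, most of it Dpp4, and 3 of 8 were higher on low cys. Without Dpp4 the trophocyte sum was 33.1 to 56.3 and 51.1 to 58.2 CPM. The part of these cells in the counts of the mesenchymal ligands was not tested.

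The other ligands of both families were also scarce. Of 13 other Wnt genes, 2 passed the filter. Wnt6 was at 1.46 ± 0.795 CPM (SD, n = 4) on normal cys and 0.818 ± 0.363 CPM (SD, n = 3) on low cys, with a log2 fold change of -0.76 ± 0.49 (SE) and an adjusted p-value of 0.794 in edgeR. Wnt9a was at 0.823 ± 0.715 and 0.531 ± 0.201 CPM, with a log2 fold change of -0.55 ± 0.60 (SE) and an adjusted p-value of 0.834 in edgeR. Neither of the 2 other R-spondins passed the filter, and after their values were seen it can be added that Rspo2 had no count in any library and Rspo4 had 2 counts in all.

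The machinery that receives the R-spondin signal was far better covered than its ligands. Of 5 genes, 4 were tested, 2 of them higher and 2 lower on low cys, and none had a p-value under 0.05 in edgeR before or after adjustment. Rnf43, a ligase that removes Frizzled receptors, was at 24.8 ± 1.65 CPM (SD, n = 4) on normal cys and 21.4 ± 4.31 CPM (SD, n = 3) on low cys, a log2 fold change of -0.22 ± 0.15 (SE). Its partner Znrf3 was at 2.96 ± 0.808 and 4.07 ± 1.57 CPM, a log2 fold change of 0.45 ± 0.34 (SE). Lgr5, an R-spondin receptor and marker of crypt stem cells, was at 2.31 ± 1.18 and 3.43 ± 1.27 CPM, a log2 fold change of 0.56 ± 0.41 (SE). All 3 had an adjusted p-value of 0.798 in edgeR. Lgr6 had no count in any library, and Lgr4, both chosen after their values were seen, was the most abundant at 118 ± 19.6 and 112 ± 8.20 CPM.

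Of 16 Wnt receptors and co-receptors, 13 were tested, 9 higher and 4 lower on low cys, with a median log2 fold change of 0.24. Of all genes tested, 51.1% had a higher mean CPM on low cys. The 9 include Fzd2, Fzd9 and Ror2, which needed their low cys libraries to pass the filter, so no support is drawn from this count or median. Fzd9 and Ror2 were named after their values were seen. Fzd9 had 8, 2, 10 and 0 counts on normal cys and 19, 6 and 16 on low cys. Ror2 had 20, 13, 4 and 1 counts on normal cys and 28, 12 and 21 on low cys. Before adjustment, 2 receptors had a p-value under 0.05 in edgeR, both higher on low cys, against 5.49% of all genes tested (2.66% higher). Without X10SI4 there were 0, against 3.44% of all genes. Fzd2, a Frizzled receptor that binds Wnt5a, had 5, 8, 0 and 7 counts on normal cys and 16, 12 and 17 on low cys, a log2 fold change of 1.43 ± 0.56 (SE) with an edgeR p-value of 0.0299 and 0.794 after adjustment. No normal cys library of Fzd2 reached the filter minimum of 10 counts. Fzd2 passed the filter only through its low cys libraries, so no support is drawn from its p-value. Fzd6 had 35, 71, 61 and 56 counts on normal cys and 116, 57 and 90 on low cys, a log2 fold change of 0.76 ± 0.28 (SE) with an edgeR p-value of 0.0227 and 0.794 after adjustment. In both, the low cys libraries all exceeded the normal cys libraries in CPM, as in 3.32% of all genes tested. Fzd7, a receptor of crypt stem cells, went the other way, at 14.2 ± 3.52 CPM (SD, n = 4) on normal cys and 9.55 ± 2.78 CPM (SD, n = 3) on low cys, with an adjusted p-value of 0.794 in edgeR.

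Of 19 secreted antagonists and their co-factors, 5 were tested, 4 higher and 1 lower, where 51.1% of all genes had a higher mean CPM on low cys. The 4 include Sfrp1, with 3, 11, 10 and 1 counts on normal cys and 11, 13 and 14 on low cys. It needed its low cys libraries to pass the filter, so no support is drawn from this count. None of the 5 had an unadjusted p-value under 0.05 in edgeR. Sfrp1, which binds Wnt outside the cell, was at 0.307 ± 0.241 CPM (SD, n = 4) on normal cys and 0.721 ± 0.240 CPM (SD, n = 3) on low cys. Apcdd1, an antagonist at the cell membrane, was at 1.75 ± 1.06 and 1.07 ± 0.198 CPM, and Dkk3 was at 0.865 ± 0.599 and 1.27 ± 0.251 CPM.

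Of 16 target genes of beta-catenin, 15 were tested, 12 higher and 3 lower on low cys, with a median log2 fold change of 0.66. A higher mean CPM on low cys was found in 51.1% of all genes, and no target had an adjusted p-value under 0.05 in edgeR. The 12 include Nkd1 and Tnfrsf19, which passed the filter through their low cys libraries, so no support is drawn from this count or median. Tnfrsf19, named after its values were seen, had 19, 5, 4 and 2 counts on normal cys and 26, 12 and 11 on low cys. Nkd1, a feedback inhibitor of the pathway, had 6, 11, 7 and 9 counts on normal cys and 21, 11 and 20 on low cys, a log2 fold change of 1.04 ± 0.35 (SE) with an edgeR p-value of 0.0146 and 0.794 after adjustment. Of the normal cys libraries only X32SI4 reached the filter minimum of 10 counts. Nkd1 therefore passed the filter through its low cys libraries, and no support is drawn from its p-value. Cd44, a surface protein of crypt cells, was at 7.21 ± 2.35 CPM (SD, n = 4) on normal cys and 11.4 ± 2.95 CPM (SD, n = 3) on low cys. Ephb3, a guidance receptor of crypt base cells, was at 2.62 ± 1.43 and 4.99 ± 1.41 CPM. Axin2, a feedback target often used as a readout of the pathway and chosen here after its values were seen, went the other way, at 91.7 ± 22.2 and 68.1 ± 14.7 CPM, a log2 fold change of -0.43 ± 0.21 (SE). Without X17SI4, 8 targets in place of 1 had an unadjusted p-value under 0.05, while the share of all genes also went from 5.49% to 11.9%. The proliferating crypt markers moved in the same direction, and their part in the values of the target genes was not tested.

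The genes closest to Wls in their pattern were found by the mean absolute difference of centred log2 CPM over the 7 libraries. They were Ugt2b35 (0.0793), Gpr126 (0.105), Cd99l2 (0.111), Cd9 (0.112) and Lamc1 (0.115), against a median of 0.429 over 14868 genes. The log2 fold changes of these 5 genes were 0.52 to 0.83. Wnt5a, the only other member with at least 20 counts in every library, was closest to Efcab2 (0.0747), AC131692.1 (0.0825), Mtfr1 (0.0983), Rb1cc1 (0.1096) and Ttbk2 (0.116), against a median of 0.366. Neither group held another member or a gene of the lists of Wnt pathway genes.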

How the data were processed

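RNA was isolated with Trizol and purified, according to the methods, with one or the other of 2 column kits (the labels name the Qiagen kit), and libraries were made with a stranded poly(A) kit. According to the labels, the methods and the submitters' processing notes, reads were trimmed with Trim Galore 0.6.5, aligned with STAR to the genome build GRCm38, and featureCounts counted those on exons. The counts of each gene were deposited unnormalized next to the exon length of each gene. The strand setting and the treatment of reads with several matches are not given in the sources used here.

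The members, gene lists and tests were chosen with earlier results of these data known. Genes were kept by filterByExpr (minimum count 10, minimum total 15), scaled by TMM and fitted with the robust quasi-likelihood test of edgeR 4.0.16 (R 4.3.3) with a prior count of 2 and no covariate, with Benjamini-Hochberg adjustment over 14869 genes. CPM is the count scaled to the library size after TMM. Exact 95% intervals were computed with SciPy 1.17.1 and, like the floor of 3 counts, cover counting error only. DESeq2 1.42.0, limma-voom (limma 3.58.1), other scalings, filters and prior counts and leaving out each library were the alternatives. The fitting was tested on simulated data. All 10 members were named, and of each other pathway list the up to 3 genes with the smallest p-value. The 5 genes most alike were named for Wls and for members with at least 20 counts in every library, and of each marker list the highest marker and those at 0. The values of 2 marker lists are not reported here. No 2 libraries were duplicates, and no protein sequence was used here.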

Additional observations from a re-analysis of the deposited data

Results flagged for a closer look

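In the 4 normal cys libraries, 21 values (the fitted members, their sums and ratios, and the marker sums) were examined for a library far from the others. Chance flags about 1 in 20 such values, and 1 was flagged. The summed T cell markers of X17SI4, at 256 CPM, were separated from the next library by 0.864 of the whole range of the group, above Dixon's critical value for 4 samples. None of the members or their sums was flagged.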

How the results depend on the processing

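No paired analysis was possible because the labels give no replicate numbers that the diets share. DESeq2 gave 16 genes with an adjusted p-value under 0.05 in place of 0 in edgeR, and leaving out 1 library gave 0 to 1. The genes with an unadjusted p-value under 0.05 numbered 258 to 1764 when 1 library was left out, with 258 without X23SI4, 404 without SI9, 522 without X10SI4 and 1764 without X17SI4. Under scaling by library totals the median log2 fold change of all genes was 0.15, and 906 of these genes were higher and 126 lower, against 396 and 421 with TMM.

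The log2 fold change of Wls ran from 0.64 to 0.86 when 1 library was left out and was 0.89 under library totals, and it kept its sign under every alternative run. That of Porcn stayed negative, from -0.71 to -0.15. Those of Wnt3 (-0.02 to 0.91), Wnt4 (-0.26 to 0.89) and Wnt5a (-0.23 to 0.08) crossed 0. With 10 or more counts required in every library Porcn, Wnt3 and Wnt4 gave no value, nor did Wnt4 without X17SI4 or X32SI4. The number of fitted members with a higher mean CPM on low cys was 2 to 3 without 1 library and 4 under library totals, and Wls was the 1 member with separate diets in each.

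Counts of pathway genes with an unadjusted p-value under 0.05 moved in several lists. For receptors they were 2 in edgeR, 1 with at least 10 counts in every library, 5 with limma-voom and 0 to 4 without 1 library. For beta-catenin targets they were 1 in edgeR, 3 with DESeq2, 2 with library totals, 3 without a filter, 0 with at least 10 counts, 5 with limma-voom and 1 to 8 without 1 library. For other Wnt ligands, R-spondin receptors, secretion genes and antagonists they were 0 to 1 without 1 library. The share of all genes with such a p-value also moved. It was 5.49% in edgeR, 4.49% with DESeq2, 6.94% with library totals and 4.88% without a filter. With at least 10 counts it was 5.47%, with limma-voom 6.29%, and without 1 library 1.71% to 11.9%. The cause of these moves was not tested. Without its highest marker the ratio of low cys to normal cys of a marker sum became 1.33 for telocytes, 1.16 for trophocytes, 1.52 for fibroblasts, 1.98 for smooth muscle, 1.56 for blood endothelium and 1.07 for B and plasma cells. Depth limits the 5 members below the filter, each with no more than 18 counts over all libraries.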
